A study of Mus musculus with 8 samples.

Results

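The 67 genes described here encode the machinery that assembles at the promoters of protein-coding genes: RNA polymerase II, the general transcription factors that place it, and Mediator. They were chosen by symbol alone, as Polr2a to Polr2l, Tbp, the Taf genes with a number, the subunit genes of TFIIA, TFIIB, TFIIE, TFIIF and TFIIH that carry a Gtf2 symbol, and the Med genes with a number. No measured value entered the choice. They were 67 of the 54838 genes in the table, namely 12 subunits of the polymerase, 15 genes of the TFIID class, 12 of the other general factors and 28 of Mediator. All 67 passed the filter on low counts that left 19101 genes to be tested. The kinases and helicases of Mediator and TFIIH, such as Cdk8, Cdk7 and Ercc3, carry other symbols and were read as a separate list.

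RNA polymerase II transcribes messenger RNA. TFIID, built from the TATA-binding protein and its associated factors (TAFs), recognises the promoter, TFIIB and TFIIF bring in the polymerase, and TFIIE and TFIIH open the DNA. Mediator, with head, middle, tail and kinase modules, carries signals from enhancer-bound activators to this assembly. Transcription falls sharply as chromosomes condense in mitosis and resumes as daughter cells enter G1.

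The RNA-seq study followed mouse pluripotent stem cells through that passage. It measured 4 states with 2 libraries each: mitotic cells arrested with nocodazole (a microtubule poison, 200 ng/ml for 6 h) and collected by shake-off, early G1 cells 1 h after release, late G1 cells 3 h after release, and asynchronous cells. The sample labels call the cells ESC, while the culture protocol describes 2 independent male induced pluripotent stem cell clones as the biological replicates. Cultures were maintained on irradiated feeders, in medium with serum, LIF (1000 U/ml), a MEK inhibitor (1 uM) and a GSK3 inhibitor (3 uM). The arrested and released cells had in addition been passaged to gelatin, so that handling and feeder content cannot be told apart from cell-cycle state in any comparison with asynchronous cells. Whether replicate 1 is the same clone in every state is not stated, and the p-values measure only the spread between these samples.

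Libraries held between 20410621 and 25615244 counts. The pluripotency genes of an 8-gene list summed to between 5147 and 6684 CPM (counts scaled to a common library total, with TMM factors that adjust for composition) over all libraries, with none at 0. A list of 12 fibroblast genes, read as a measure of feeder RNA, summed to 28.9 to 33.9 CPM in mitotic, 57.8 to 62.9 CPM in early G1, 25.6 to 31.0 CPM in late G1 and 1302 to 1363 CPM in asynchronous libraries. Of 10 macrophage genes the sums were 101.7 to 111.5 CPM in mitotic, 45.1 to 49.9 CPM in early G1, 47.9 to 51.1 CPM in late G1 and 83.7 to 87.9 CPM in asynchronous libraries, and Lyz2 was at 0 in both late G1 libraries. Cd68 alone made up 39.4 to 44.9 CPM in each G1 library. The other macrophage genes apart from Fcgr3 were low in G1 libraries: Lyz2 had 28.7 and 30.8 CPM in mitotic, 0.756 and 0.116 CPM in early G1, and 9.44 and 14.7 CPM in asynchronous libraries, and Adgre1, C1qa, C1qb and C1qc ranged over 3.97 to 7.84 CPM in mitotic and 0 to 0.328 CPM in G1 libraries. The part of these cells in the results below was not tested. In bulk RNA, fewer cells of a type and less RNA per cell cannot be told apart.

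The 2 asynchronous libraries stood apart from each other more than any other pair did. The biological coefficient of variation over all genes was 0.183 for mitotic, 0.0507 for early G1, 0.0418 for late G1 and 0.299 for asynchronous libraries. Of the members, 17 were apart by over 1.5-fold in the 2 asynchronous libraries, against 1 between the mitotic, 0 between the early G1 and 0 between the late G1 libraries. The gap tended to follow transcript length, with exceptions. The 8 that were higher in asynchronous replicate 1 included Med12, Med13, Med23, Taf2, Taf4 and Gtf2e1, and the median of their longest principal transcripts was 4610 bases. The 9 that were higher in asynchronous replicate 2 included Polr2e, Polr2f, Polr2h, Polr2i and Polr2j, with a median of 1150 bases. Exceptions included Med28 (4560 bases) and Taf10 (4281 bases) among these 9, and Polr2k (489 bases), the shortest member, among the 8. Of the 33 members below the median length of 2068 bases, 27 were higher in asynchronous replicate 2, against 10 of the 34 others. Spearman's rho of the log2 ratio of replicate 2 to replicate 1 with length, over 67 genes that share the same libraries, was -0.43 for mitotic, 0.43 for early G1, -0.28 for late G1 and -0.54 for asynchronous cells. This is a description across genes, which are not independent replicates. Several results on named members are therefore also given without one of the asynchronous libraries.

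**Figure D1:**
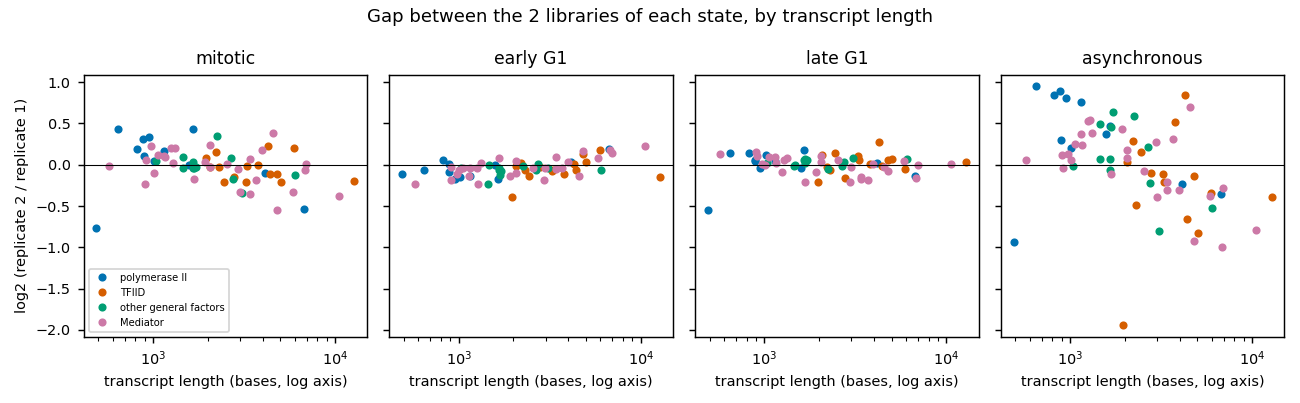
Log2 ratio of replicate 2 to replicate 1 (vertical axis) against the length of the longest principal transcript (horizontal axis, log scale, in bases) for the 67 members, in 1 panel per state; colours mark the 4 classes. The points spread most in the asynchronous panel, where short polymerase subunits other than Polr2k lie above 0 and most long transcripts lie below it, and least in the G1 panels.

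As level per length, in TMM-normalised CPM per kilobase of the longest principal transcript and averaged over 8 libraries, the members spanned from 0.833 for Taf9 to 384 for Polr2e. Among the polymerase subunits used only by polymerase II, the catalytic Polr2a stood at 81.6 CPM per kb and its large partner Polr2b at 59.4 CPM per kb. The lowest levels carry the least certain values. Taf9 shared 73.8% of its exon bases with Ak6 on the same strand, had 8 to 56 counts per library, and is given no weight here. Med10, Polr2k and Polr2l also averaged below 10 CPM, and Med10 shared 92.8% of its exon bases with Gm26819 on the opposite strand. In all, 28 members overlapped an exon of another gene, and the strand setting of the counting is not given in the sources used here. How reads over the shared bases were counted is not known either, so the counts of these members may be too high or too low. For 13 members, more than 20% of the 50-base windows of the transcript also occurred in another gene's transcripts, among them Polr2c with 62.7%, Taf10 with 49.1% and Taf6 with 33.8%. For 33 members no window was shared.

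The first question was what changed on release from mitosis. By early G1, 3 members had changed: Med18 and Taf1 rose and Taf15 fell. Of the 19101 genes tested, 4.63% were called in this comparison in either direction, 3.21% as higher and 1.42% as lower, at an adjusted p under 0.05 (edgeR's quasi-likelihood test with Benjamini-Hochberg adjustment). Of the 67 members 3 were called (4.48%), 2 higher (2.99%) and 1 lower (1.49%), which is near the background in each direction. The median log2 fold change of early G1 over mitotic cells was -0.11 for the members and -0.01 for all genes. A total of 60 members differed by less than 0.5 on the log2 scale, and for 62 the fold change plus or minus 2 standard errors stayed inside 1 log2 unit. Small shifts were more often downward: both early G1 libraries lay above both mitotic ones for 17 members (25.4%, against 30.9% of all genes) and below both for 32 (47.8%, against 30.9% of all genes). No test of these shares was made.

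Med18, a subunit of the Mediator head (ENSMUSG00000066042, GRCm38 chr4:132458731-132463921, minus strand), had the largest difference. It measured 5.73 and 5.09 CPM in mitotic, 14.7 and 15.6 CPM in early G1, 16.9 and 14.6 CPM in late G1, and 15.7 and 14.5 CPM in asynchronous libraries. Both mitotic libraries lay below the other 6, which overlapped one another. As raw counts, Med18 had 136 and 118 reads in mitotic, 311 and 403 in early G1, 370 and 311 in late G1, and 395 and 286 in asynchronous libraries. It was 2.79-fold higher in early G1 than in mitotic cells (log2 fold change 1.48 ± 0.17 SE, adjusted p = 0.0052 with edgeR). The early G1 call was lost with adjusted p = 0.0553 without mitotic replicate 1, 0.0590 without early G1 replicate 1 and 0.0763 without early G1 replicate 2, at log2 fold changes between 1.44 and 1.57. Of its transcript, 1.17% of windows were shared with other genes.

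Of the 7 head subunits, Med18 alone was called between early G1 and mitotic cells. Med20, which forms a dimer with Med18 in the head, had 40.3 and 47.7 CPM in mitotic, 44.1 and 45.4 CPM in early G1, 41.1 and 42.2 CPM in late G1, and 38.0 and 43.0 CPM in asynchronous libraries. Med8, which ties that pair to the rest of the head, had 83.0 and 89.3 CPM in mitotic, 74.0 and 67.3 CPM in early G1, 68.2 and 72.8 CPM in late G1, and 50.4 and 65.3 CPM in asynchronous libraries. Med8 was highest in the mitotic libraries, and the mitotic range of Med20 enclosed both G1 ranges and overlapped the asynchronous one. These partners were chosen for their known contact with Med18 after its values were seen.

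Taf1, the largest TAF and the scaffold on which TFIID binds promoter DNA and acetylated histones (ENSMUSG00000031314, chrX:101532734-101601789, plus strand), had 77.0 and 88.7 CPM in mitotic libraries. It had 127 and 144 CPM in early G1, 137 and 132 CPM in late G1, and 73.5 and 57.8 CPM in asynchronous libraries. All 4 G1 libraries lay above the mitotic and asynchronous ones. Taf1 was 1.63-fold higher in early G1 than in mitotic cells (log2 0.71 ± 0.15 SE, edgeR adjusted p = 0.042).

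Taf15 is an RNA-binding protein that is found with a part of TFIID (ENSMUSG00000020680, chr11:83473086-83506743, plus strand). It had 264 and 259 CPM in mitotic, 176 and 173 CPM in early G1, 154 and 167 CPM in late G1, and 248 and 254 CPM in asynchronous libraries. Both G1 states lay below both other states, with no overlap. Its level in early G1 was 0.667 times that in mitotic cells (log2 -0.58 ± 0.11 SE, edgeR adjusted p = 0.027).

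The Taf1 and Taf15 calls held whichever asynchronous library was left out, and were lost without any 1 of the 6 other libraries. Their adjusted p then lay between 0.118 and 0.344 for Taf1 and between 0.0901 and 0.275 for Taf15, while the log2 fold changes stayed between 0.61 and 0.81 and between -0.60 and -0.57. In a fit with the replicate number as a block Taf1 missed the threshold (adjusted p = 0.05004).

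The promoters of these 3 genes are shown because they changed at the same step, from the 250 bases before to the 50 bases after the RefSeq start, in GRCm38.p6 coordinates, each 5′ to 3′ on the gene's strand. Capitals mark matches on either strand to the 7 motifs searched, which are spelled out after the sequences. The windows are chr4:132463872-132464171 (minus strand) for Med18, chrX:101532485-101532784 (plus strand) for Taf1 and chr11:83472858-83473157 (plus strand) for Taf15.
Med18: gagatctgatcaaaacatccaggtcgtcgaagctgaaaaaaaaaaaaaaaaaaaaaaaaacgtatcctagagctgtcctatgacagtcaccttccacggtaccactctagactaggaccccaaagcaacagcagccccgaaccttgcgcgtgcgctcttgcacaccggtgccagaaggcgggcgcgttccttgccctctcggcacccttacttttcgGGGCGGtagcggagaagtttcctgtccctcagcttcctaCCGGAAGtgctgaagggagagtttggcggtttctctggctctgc
Taf1: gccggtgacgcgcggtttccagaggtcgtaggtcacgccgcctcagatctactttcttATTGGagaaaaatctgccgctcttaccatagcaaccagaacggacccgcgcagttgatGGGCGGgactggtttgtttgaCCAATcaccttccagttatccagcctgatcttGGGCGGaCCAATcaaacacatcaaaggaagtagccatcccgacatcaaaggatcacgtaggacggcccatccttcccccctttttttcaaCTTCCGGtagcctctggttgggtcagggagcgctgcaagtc
Taf15: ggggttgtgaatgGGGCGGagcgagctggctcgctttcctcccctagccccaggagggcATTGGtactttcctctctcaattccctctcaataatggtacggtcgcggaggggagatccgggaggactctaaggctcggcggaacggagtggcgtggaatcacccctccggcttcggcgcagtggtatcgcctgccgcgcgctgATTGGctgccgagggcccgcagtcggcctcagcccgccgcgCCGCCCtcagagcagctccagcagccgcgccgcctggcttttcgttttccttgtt

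No window of the 3 held a TATA box (TATAAA). Each held a GC box (GGGCGG), Taf1 and Taf15 held CCAAT boxes (CCAAT), and Med18 and Taf1 each held an ETS motif (CCGGAAG) just after the start. RefSeq promoters were found for 57 of the 67 members, with 67 windows in all. A GC box lay in 64.2% of these windows and in 35.7% of all 32851 promoter windows of the same length. The ETS motif lay in 31.3% against 8.86% of all windows, the YY1 motif (AAGATGGC) in 10.4% against 2.75%, and an E2F motif (TTCCCGC) in 11.9% against 4.60%. The TATA box lay in 16.4% against 13.6%, CCAAT in 32.8% against 37.4%, and the CHR element of genes expressed late in the cell cycle (TTTGAA) in 10.4% against 17.9%. Both strands were searched, and matches to the GC box and to the E2F motif can overlap. The shares describe letters in these windows and not binding.

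Between early G1 and late G1, no member was called and the levels stayed close. The background was the same, with 0 of 19101 genes called (0%) at an adjusted p under 0.05 in edgeR, 724 genes and 0 members at an unadjusted p under 0.05, and 0 members in DESeq2. All 67 members differed by less than 0.5 on the log2 scale, between -0.22 for Polr2a and 0.29 for Med31, and for 66 the fold change plus or minus 2 standard errors stayed inside 1 log2 unit, all but the low-count Taf9. Both late G1 libraries lay above both early G1 ones for 14 members (20.9%, against 24.4% of all genes) and below both for 15 (22.4%, against 25.9% of all genes). When only the 4 G1 libraries were fitted, without the spread of the other states, Gtf2f1, Taf7 and Med21 were called higher (log2 0.17, 0.18 and 0.28) and Polr2a lower (log2 -0.22) in late G1 than in early G1. The share of all genes called in that fit is not given here, so these calls are not read as particular to the members.

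Set against mitotic cells, late G1 cells had 4 called members. Med18, Taf1 and Polr2b rose and Taf15 fell. Of all genes tested 9.48% were called in either direction, 5.43% as higher and 4.04% as lower. Of the members 4 were called (5.97%), 3 higher (4.48%) and 1 lower (1.49%), a smaller share than the background. Both late G1 libraries lay above both mitotic ones for 18 members (26.9%, against 32% of all genes) and below both for 32 (47.8%, against 32.3% of all genes), again with no test. Med18 was 2.90-fold higher (log2 1.54 ± 0.17 SE, edgeR adjusted p = 0.0034) and Taf1 1.62-fold higher (log2 0.70 ± 0.15 SE, edgeR adjusted p = 0.029). Taf15 stood at 0.615 times its mitotic level (log2 -0.70 ± 0.11 SE, edgeR adjusted p = 0.010).

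Polr2b, the second largest polymerase subunit, which closes the active site with Polr2a (ENSMUSG00000029250, chr5:77310147-77349324, plus strand), had 233 and 218 CPM in mitotic, 291 and 298 CPM in early G1, 314 and 319 CPM in late G1, and 160 and 136 CPM in asynchronous libraries. The 4 states did not overlap. Polr2b was 1.40-fold higher in late G1 than in mitotic cells (log2 0.49 ± 0.12 SE, edgeR adjusted p = 0.043). Polr2a, the largest subunit, which carries the catalytic centre and the C-terminal repeat tail, had 705 and 487 CPM in mitotic, 561 and 643 CPM in early G1, 541 and 493 CPM in late G1, and 544 and 426 CPM in asynchronous libraries. The mitotic range of Polr2a overlapped both G1 ranges, while both late G1 libraries lay below both early G1 ones. None of the 5 comparisons called it when all 8 libraries were fitted. The level of Polr2b divided by that of Polr2a in the same library, a ratio chosen after the values were seen and not corrected for length, was 0.331 and 0.449 in mitotic, 0.519 and 0.464 in early G1, 0.581 and 0.648 in late G1, and 0.294 and 0.320 in asynchronous libraries.

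The late G1 calls depended on single libraries. Med18 lost its call without late G1 replicate 1 (adjusted p = 0.0558, log2 1.43). Taf1 and Polr2b lost theirs without any 1 mitotic, early G1 or late G1 library, with adjusted p between 0.0744 and 0.207 for Taf1 and between 0.116 and 0.262 for Polr2b. Taf15 lost its call without any 1 mitotic or late G1 library (adjusted p between 0.0508 and 0.140).

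The number of calls in the release steps depended on which libraries were fitted, and the cause was not tested. Without asynchronous replicate 1, and likewise without asynchronous replicate 2, 6 members were called higher and 10 lower in early G1 than in mitotic cells, or 8.96% and 14.9% of the 67, against 12% to 12.2% of all genes called higher and 10.2% to 10.3% called lower in these fits. In the same settings 9 were called higher and 13 lower in late G1 than in mitotic cells, or 13.4% and 19.4%, against 14.2% to 14.3% of all genes higher and 13.2% to 13.3% lower. No test of these shares was made. The added members moved by less than 1.5-fold, apart from the low-count Taf9, and included Taf2, Taf4 and the scaffold Med14 as higher, and Taf12, Med27 and Taf10 as lower, in both steps. Without any 1 mitotic, early G1 or late G1 library, fewer members were called in either step than with all 8 libraries. The share of all genes called in those fits is not given here, so this fall is not read as a result about the members.

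**Figure D2:**
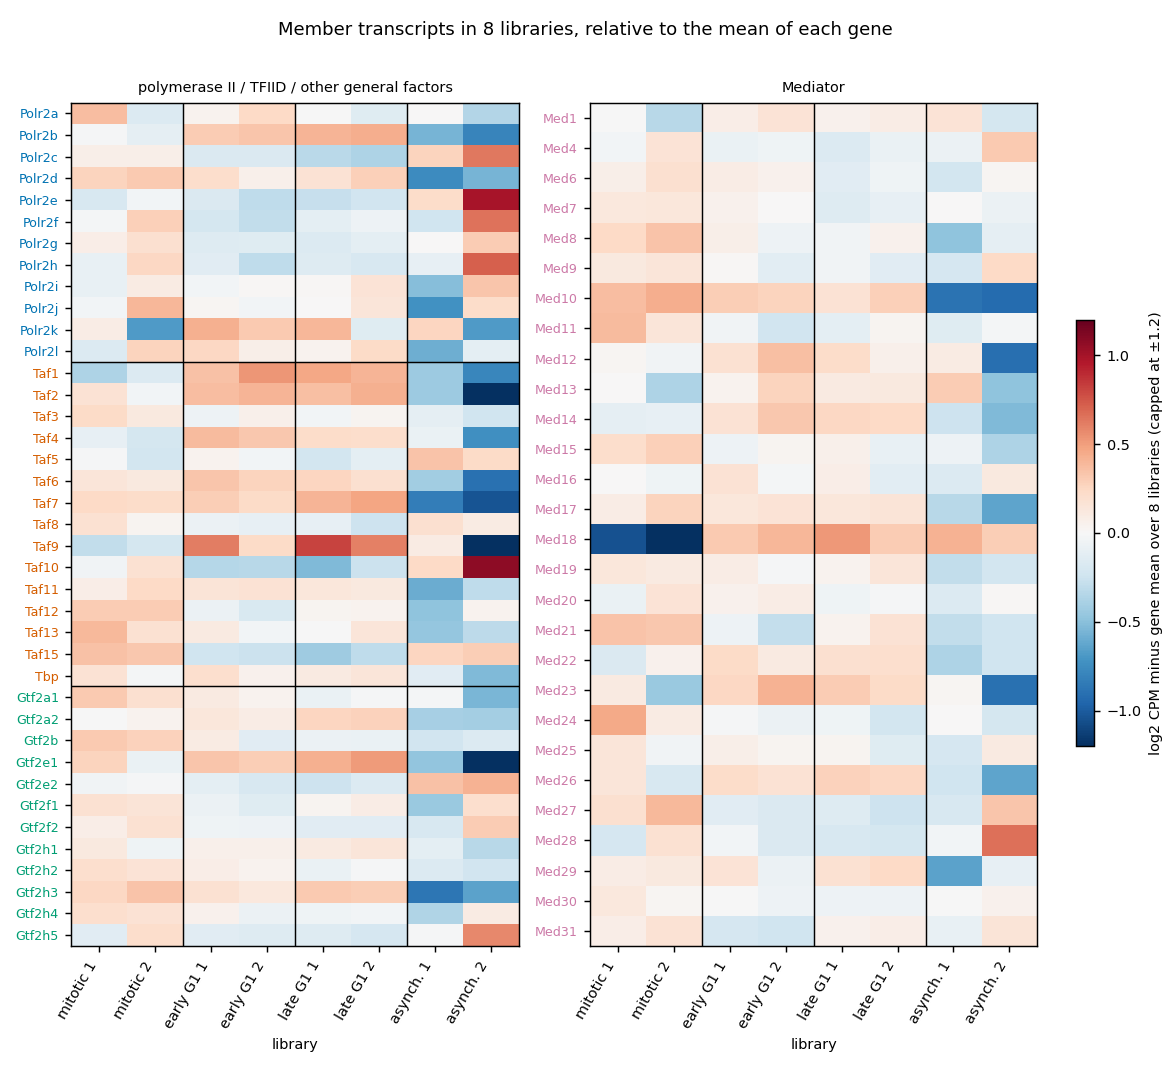
Log2 CPM of each member minus its mean over the 8 libraries (colour scale capped at 1.2 in either direction), with members as rows grouped by class and libraries as columns in the order mitotic, early G1, late G1, asynchronous. Med18 is the row with 2 dark blue mitotic cells, and most of the strong colours lie in the 2 asynchronous columns, which also differ from each other.

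Of the members followed through every comparison, Tbp, Gtf2b, Med1 and Med12 were not called on release. Tbp, the TATA-binding protein, had 58.0 and 50.5 CPM in mitotic, 58.8 and 53.2 CPM in early G1, 55.4 and 56.9 CPM in late G1, and 46.6 and 35.4 CPM in asynchronous libraries. The mitotic range enclosed the late G1 values and most of the early G1 range, and the asynchronous libraries were below all of them. Gtf2b, the single subunit of TFIIB, had 40.5 and 39.4 CPM in mitotic, 34.8 and 29.7 CPM in early G1, 30.9 and 30.7 CPM in late G1, and 27.7 and 29.1 CPM in asynchronous libraries. It was highest in the mitotic libraries, with log2 differences of -0.31 for early G1 over mitotic and -0.37 for late G1 over mitotic that missed the threshold (edgeR adjusted p = 0.222 and 0.124). The late G1 difference was called without either asynchronous library (edgeR adjusted p = 0.0295 and 0.0287).

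Med1, which binds nuclear receptors in the middle module, had 88.0 and 70.2 CPM in mitotic, 93.3 and 99.0 CPM in early G1, 91.5 and 94.2 CPM in late G1, and 99.3 and 76.6 CPM in asynchronous libraries. Med12, which activates the kinase of the kinase module, had 51.6 and 49.4 CPM in mitotic, 57.9 and 65.4 CPM in early G1, 59.5 and 53.2 CPM in late G1, and 54.4 and 27.3 CPM in asynchronous libraries. Neither was called in any of the 5 comparisons with all 8 libraries, and for both the asynchronous pair spanned the widest range of the 4 states. Med12 turned on which asynchronous library was used. Without asynchronous replicate 1 its log2 fold change was 0.90 in mitotic and 1.05 in late G1 over asynchronous cells. Without asynchronous replicate 2 these differences were -0.11 and 0.05. With 1 asynchronous library left, a fit holds no spread between asynchronous libraries, so only the size of the difference is given.

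By class, the median log2 fold change of late G1 over mitotic cells was -0.13 for the polymerase, from -0.42 for Polr2c to 0.49 for Polr2b, and -0.03 for TFIID, from -0.70 for Taf15 to 0.97 for the low-count Taf9. It was -0.20 for the other general factors, from -0.37 for Gtf2b to 0.36 for Gtf2e1, and -0.09 for Mediator, from -0.50 for Med27 to 1.54 for Med18. For early G1 over mitotic cells the class medians were -0.14, 0.04, -0.16 and -0.08 in the same order. The lower ends of these were Polr2f (-0.39), Taf15 (-0.58), Gtf2b (-0.31) and Med21 (-0.51), and the upper ends Polr2k (0.61), Taf1 (0.71), Gtf2e1 (0.21) and Med18 (1.48). In both steps every class held members with positive and members with negative differences.

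Far more members differed between the synchronised cells and asynchronous cells. In mitotic over asynchronous cells 20 members were higher and 4 lower, led by Taf7, Gtf2h3 and Polr2d as higher and Med18 as lower. Of all genes tested 40.7% were called in either direction, 18.3% as higher and 22.4% as lower. Of the members 35.8% were called, 29.9% as higher and 5.97% as lower, and their median log2 fold change was 0.27 against -0.05 for all genes. The share called was below the background in total, above it among the higher calls and below it among the lower calls, and no test of the list was made. Both mitotic libraries lay above both asynchronous ones for 34 members (50.7%, against 30.9% of all genes) and below both for 6 (8.96%, against 34.4% of all genes).

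In late G1 over asynchronous cells 22 members were higher and 6 lower. Of all genes tested 48.7% were called in either direction, 22.7% as higher and 26% as lower. Of the members 41.8% were called, 32.8% as higher and 8.96% as lower, with a median log2 fold change of 0.15 against -0.03 for all genes. Both late G1 libraries lay above both asynchronous ones for 29 members (43.3%, against 36.8% of all genes) and below both for 14 (20.9%, against 38.1% of all genes). Both comparisons share the asynchronous libraries, so their calls are not independent of each other.

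Taf7, the TFIID subunit that binds Taf1 and restrains its acetyltransferase activity, had 186 and 183 CPM in mitotic, 194 and 185 CPM in early G1, 209 and 219 CPM in late G1, and 88.8 and 76.7 CPM in asynchronous libraries. The asynchronous libraries were below all others. Taf7 was 2.23-fold higher in mitotic (log2 1.16 ± 0.12 SE, edgeR adjusted p = 0.00036) and 2.59-fold higher in late G1 than in asynchronous cells (log2 1.37 ± 0.12 SE, edgeR adjusted p = 0.00015).

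Gtf2h3, the p34 subunit of the TFIIH core (chr5:124579140-124597680, plus strand), had 116 and 123 CPM in mitotic, 111 and 106 CPM in early G1, 122 and 120 CPM in late G1, and 53.7 and 62.6 CPM in asynchronous libraries. It was 2.06-fold higher in mitotic (log2 1.04 ± 0.12 SE, edgeR adjusted p = 0.00062) and 2.08-fold higher in late G1 than in asynchronous cells (log2 1.06 ± 0.12 SE, edgeR adjusted p = 0.00044). The other 4 core subunits with a Gtf2h symbol lay closer to the asynchronous level, with mitotic over asynchronous log2 fold changes between -0.27 for Gtf2h5 and 0.38 for Gtf2h2. Of these, only Gtf2h2 was called in that comparison.

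Polr2d forms the stalk of the polymerase with Polr2g. Polr2d had 105 and 108 CPM in mitotic, 101 and 91.0 CPM in early G1, 98.3 and 106 CPM in late G1, and 51.6 and 59.3 CPM in asynchronous libraries. Polr2g had 119 and 128 CPM in mitotic, 100 and 101 CPM in early G1, 100 and 104 CPM in late G1, and 112 and 139 CPM in asynchronous libraries. Polr2d was 1.92-fold higher in mitotic (log2 0.94 ± 0.13 SE, edgeR adjusted p = 0.0011) and 1.85-fold higher in late G1 than in asynchronous cells (log2 0.88 ± 0.13 SE, edgeR adjusted p = 0.0011), while Polr2g was not called in either. Without asynchronous replicate 1, the log2 fold change of Polr2g in late G1 over asynchronous cells was -0.44.

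The 2 subunits of TFIIE moved in opposite directions. Gtf2e1 (chr16:37509790-37539789, minus strand) had 115 and 90.6 CPM in mitotic, 120 and 117 CPM in early G1, 128 and 136 CPM in late G1, and 68.6 and 39.5 CPM in asynchronous libraries. Gtf2e2 (chr8:33731833-33777173, plus strand) had 116 and 119 CPM in mitotic, 110 and 105 CPM in early G1, 101 and 107 CPM in late G1, and 153 and 160 CPM in asynchronous libraries. For both genes, the asynchronous libraries lay outside the range of the other 6, on opposite sides. Gtf2e1 was 1.90-fold higher in mitotic (edgeR adjusted p = 0.017) and 2.44-fold higher in late G1 than in asynchronous cells (edgeR adjusted p = 0.0033). Gtf2e2 stood at 0.750 times the asynchronous level in mitotic (edgeR adjusted p = 0.018) and at 0.663 times in late G1 cells (edgeR adjusted p = 0.0032). The level of Gtf2e1 divided by that of Gtf2e2 in the same library, again chosen after the values were seen and not corrected for length, was 0.988 and 0.760 in mitotic, 1.09 and 1.11 in early G1, 1.27 and 1.27 in late G1, and 0.447 and 0.246 in asynchronous libraries.

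**Figure D3:**
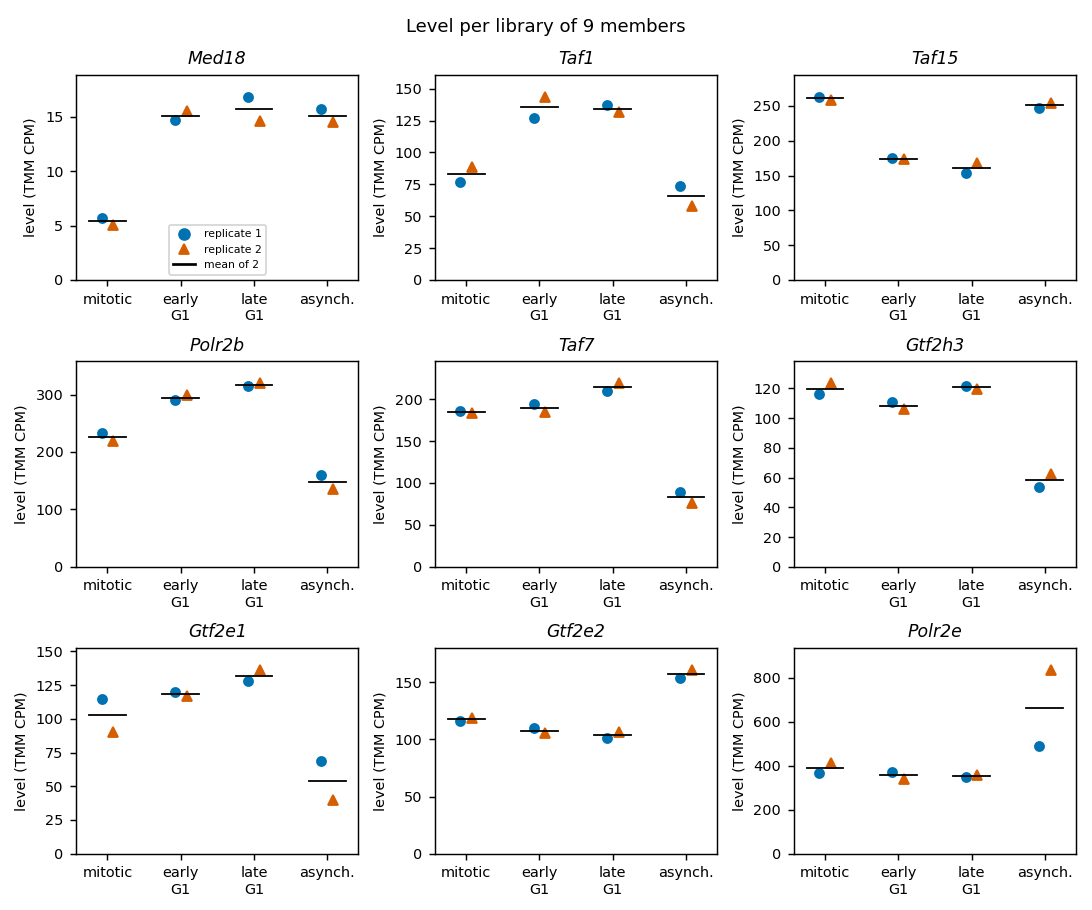
Level in TMM-normalised CPM (vertical axis, from 0) of 9 members in the 4 states, with 1 point per library (circle for replicate 1, triangle for replicate 2) and a bar at the mean of 2. Med18 is low in mitotic cells alone, Taf1 and Taf15 separate both G1 states from the others in opposite directions, and Taf7, Gtf2h3 and Gtf2e1 are lowest in asynchronous cells, where Gtf2e2 and Polr2e are highest.

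Within TFIID, Taf2, which contacts the initiator element, had 93.4 and 81.1 CPM in mitotic, 107 and 110 CPM in early G1, 106 and 111 CPM in late G1, and 61.2 and 34.6 CPM in asynchronous libraries. It was 1.82-fold higher in mitotic (edgeR adjusted p = 0.020) and 2.27-fold higher in late G1 than in asynchronous cells (edgeR adjusted p = 0.0044). Taf6, which pairs with Taf9 through histone folds, had 66.5 and 65.2 CPM in mitotic, 75.6 and 72.5 CPM in early G1, 71.8 and 68.9 CPM in late G1, and 45.0 and 32.2 CPM in asynchronous libraries. For Taf6 the fold was 1.70 in mitotic over asynchronous cells (edgeR adjusted p = 0.0076), and 26.5% of its exon bases overlapped Ap4m1 on the opposite strand. Taf1 was 2.04-fold higher in late G1 than in asynchronous cells (log2 1.03 ± 0.15 SE, edgeR adjusted p = 0.0012), and Polr2b 2.14-fold higher (log2 1.10 ± 0.12 SE, edgeR adjusted p = 0.00036).

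Fewer members were lower than in asynchronous cells. Polr2e, the RPB5 subunit that polymerases I, II and III share (chr10:80035949-80039795, minus strand), had 368 and 411 CPM in mitotic, 374 and 340 CPM in early G1, 349 and 359 CPM in late G1, and 491 and 834 CPM in asynchronous libraries. The 2 asynchronous libraries were both above all others but far from each other. Its level was 0.588 times the asynchronous one in mitotic (log2 -0.77 ± 0.22 SE, edgeR adjusted p = 0.025) and 0.534 times in late G1 cells (log2 -0.91 ± 0.22 SE, edgeR adjusted p = 0.011). Without asynchronous replicate 2 these log2 fold changes were -0.34 and -0.48.

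Taf5, the WD-repeat subunit of the TFIID core, had 37.2 and 32.3 CPM in mitotic, 38.7 and 36.7 CPM in early G1, 32.2 and 34.6 CPM in late G1, and 47.7 and 44.2 CPM in asynchronous libraries. It stood at 0.756 times the asynchronous level in mitotic (edgeR adjusted p = 0.044) and at 0.726 times in late G1 cells (edgeR adjusted p = 0.023). Taf15 in late G1 cells was at 0.641 times its asynchronous level (log2 -0.64 ± 0.11 SE, edgeR adjusted p = 0.0021).

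Polr2c and Taf10, the other 2 members lower in late G1 than in asynchronous cells, are uncertain for the shared sequence and overlap given above. Polr2c, an assembly subunit, had 49.9 and 48.4 CPM in late G1 and 75.2 and 97.1 CPM in asynchronous libraries (log2 -0.81 ± 0.14 SE, edgeR adjusted p = 0.0027). Taf10 had 20.5 and 24.8 CPM in late G1 and 35.0 and 62.6 CPM in asynchronous libraries (log2 -1.10 ± 0.26 SE, edgeR adjusted p = 0.0089). Without asynchronous replicate 2 the log2 fold change of Taf10 was -0.63.

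By class, the counts can be read against the shares of all genes called, 18.3% higher and 22.4% lower in mitotic and 22.7% higher and 26% lower in late G1 over asynchronous cells, and no class was tested as a set. Mediator, the largest class, had 6 members higher and 1 lower of 28 in mitotic over asynchronous cells, with a median log2 fold change of 0.22 between -1.48 for Med18 and 1.31 for Med10. In late G1 over asynchronous cells it had 8 higher and 0 lower in edgeR and in DESeq2 (1 lower at an unadjusted p under 0.05), with a median of 0.07, between -0.56 for Med28 and 1.13 for Med10. The head subunit Med17 had 88.2 and 99.8 CPM in mitotic, 91.2 and 93.0 CPM in early G1, 91.2 and 92.1 CPM in late G1, and 65.8 and 53.4 CPM in asynchronous libraries, and was higher in both comparisons (log2 0.66 and 0.62, edgeR adjusted p = 0.0072 and 0.0073). Med17 was singled out after its values were seen. Neither kinase-module member, Med12 or Med13, was called in any comparison with all 8 libraries. Without asynchronous replicate 1, the log2 fold change of Med13 in late G1 over asynchronous cells was 0.60. Without asynchronous replicate 2, that of Med13 in mitotic over asynchronous cells was -0.48.

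TFIID had 6 higher (40% of them) and 1 lower (6.67%) of 15 in mitotic over asynchronous cells (median log2 0.35, from -0.64 for Taf10 to 1.16 for Taf7). Against the same cells, late G1 had 8 higher and 3 lower (median 0.46, from -1.10 for Taf10 to 1.37 for Taf7). The other general factors had 6 higher and 1 lower of 12 in mitotic (median 0.34, from -0.41 for Gtf2e2 to 1.04 for Gtf2h3), and 4 higher and 1 lower in late G1 over asynchronous cells (median 0.15, from -0.59 for Gtf2e2 to 1.29 for Gtf2e1). The polymerase had 2 higher and 1 lower of 12 in mitotic (median 0.01, from -0.77 for Polr2e to 0.94 for Polr2d), and 2 higher and 2 lower in late G1 over asynchronous cells (median 0.11, from -0.91 for Polr2e to 1.10 for Polr2b). Within it, the 7 subunits used only by polymerase II had a median of 0.30 in mitotic over asynchronous cells, and the 5 shared with polymerases I and III a median of -0.13. The shared subunits are short transcripts, and among them Polr2e, Polr2f and Polr2h were each more than 1.5-fold higher in asynchronous replicate 2 than in replicate 1. The low-count Polr2k, also shared, was 1.91-fold higher in asynchronous replicate 1 than in replicate 2.

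Tbp was 1.37-fold higher in late G1 than in asynchronous cells (log2 0.45 ± 0.16 SE, edgeR adjusted p = 0.0475), and 1.32-fold higher in mitotic cells without passing the threshold (edgeR adjusted p = 0.0784). Of the exon bases of Tbp, 19.0% overlapped Pdcd2 on the opposite strand, and 17.8% of its windows were shared with other genes. Without asynchronous replicate 1, the log2 fold change in mitotic over asynchronous cells was 0.62 for Tbp and 0.52 for Taf1. Gtf2b was 1.41-fold higher in mitotic than in asynchronous cells (log2 0.49 ± 0.14 SE, edgeR adjusted p = 0.021), and not called in late G1 cells (log2 0.12, edgeR adjusted p = 0.492). Polr2a differed by log2 0.30 ± 0.20 SE in mitotic and 0.09 ± 0.20 SE in late G1 over asynchronous cells, with edgeR adjusted p = 0.254 and 0.719.

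**Figure D4:**
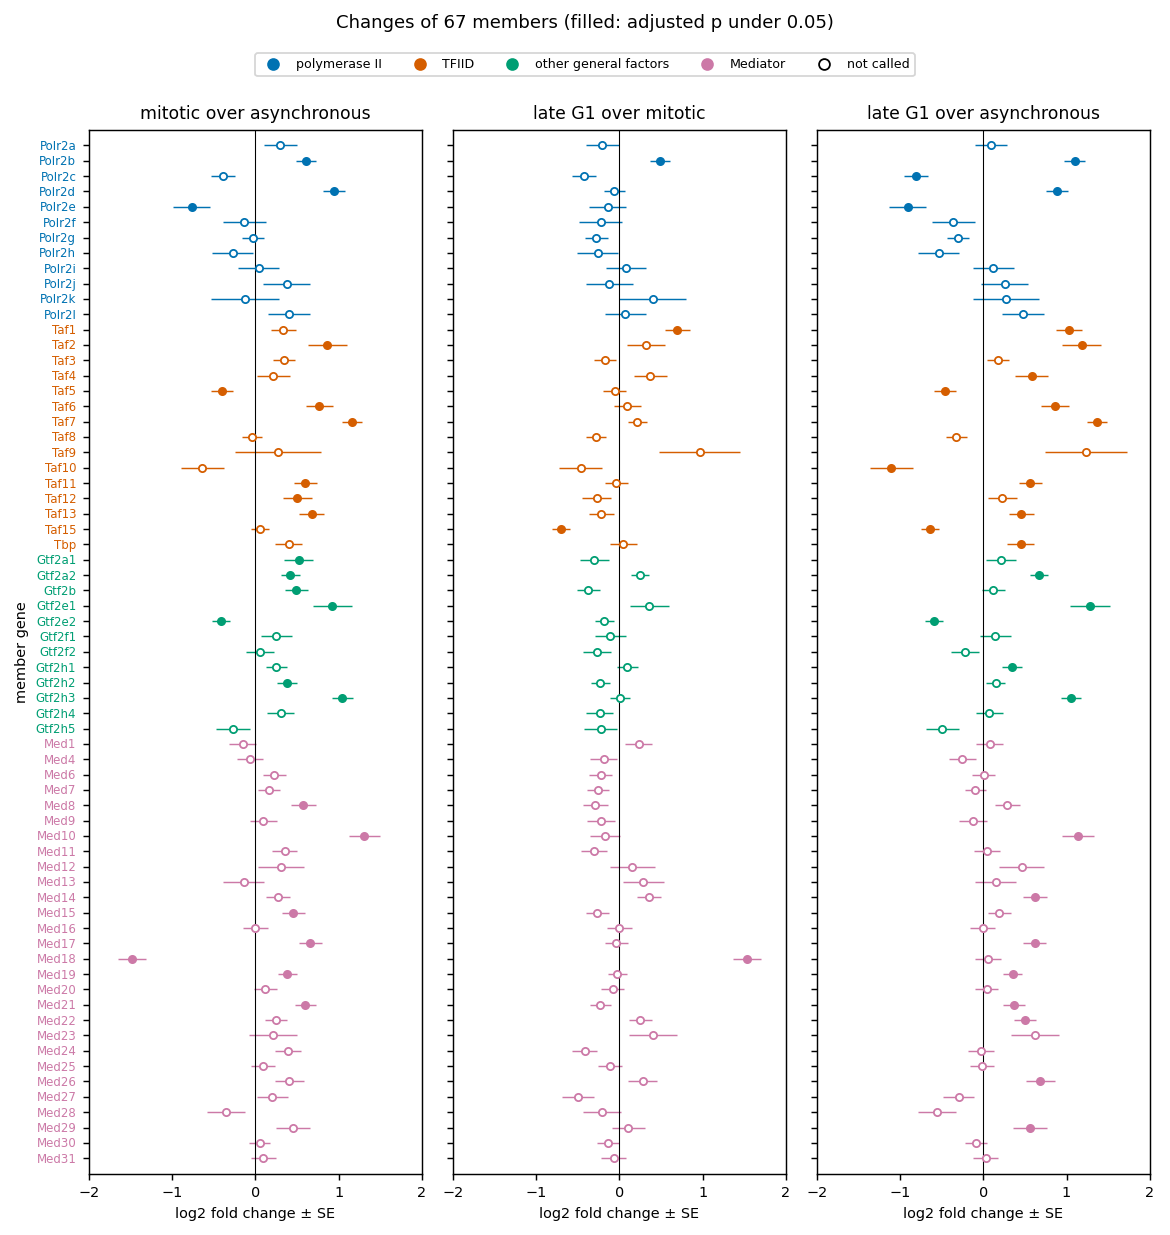
Log2 fold change with its standard error (horizontal axis) for each of the 67 members (rows, coloured by class) in mitotic over asynchronous, late G1 over mitotic and late G1 over asynchronous cells; filled points had an adjusted p under 0.05. The middle panel has 4 filled points, Med18, Taf1, Polr2b and Taf15, against 24 and 28 in the outer panels.

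The calls against asynchronous cells were counted again with each library left out in turn. Among the 20 members higher in mitotic cells, 9 were called in all 8 such fits, namely Taf7, Gtf2h3, Polr2d, Polr2b, Taf6, Taf13, Med17, Med21 and Med10, and of the 4 lower, Med18. Among the 22 higher in late G1 cells, 10 were called in all 8, namely Taf7, Gtf2e1, Taf2, Polr2b, Gtf2h3, Taf1, Taf6, Polr2d, Gtf2a2 and Med10, and of the 6 lower, Polr2c and Taf15.

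Of the members named above for mitotic over asynchronous cells, Gtf2e1 lost its call without mitotic replicate 1 (adjusted p = 0.105) and Taf2 without mitotic replicate 1 or 2 (0.107 and 0.0537). Gtf2h2 lost it without any library other than the 2 asynchronous ones (0.0761 to 0.105). Polr2e lost it without mitotic replicate 1, mitotic replicate 2 or late G1 replicate 1 (0.0505 to 0.140), and Gtf2b without either mitotic or either late G1 library (0.0517 to 0.0781). Gtf2e2 lost it without any library other than the 2 asynchronous ones (0.0550 to 0.0899), and Taf5 without any library other than asynchronous replicate 2 (0.0529 to 0.206). Without asynchronous replicate 2 the log2 fold change was 0.58 for Gtf2e1 and 0.51 for Taf2, and without asynchronous replicate 1 it was 1.34 for Taf2.

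Of those named for late G1 over asynchronous cells, Taf10 and Gtf2e2 lost the call without late G1 replicate 1 (adjusted p = 0.0785 and 0.0516), and Polr2e without either late G1 library (0.0737 and 0.0635). Med17 also lost it without late G1 replicate 1 or 2 (0.0512 and 0.0570). Taf5 lost it without any 1 early or late G1 library (0.0620 to 0.176), and Tbp without any library other than asynchronous replicate 1 (0.0598 to 0.184), with log2 0.26 without asynchronous replicate 2.

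The counts moved as well. The share of all genes called also moved where an asynchronous library was left out, and it is not given here for the other fits. The counts are therefore no result about the members. Mitotic over asynchronous cells had 10 and 11 members higher without mitotic replicate 1 and 2, 13 without either late G1 library, and 31 without asynchronous replicate 1. The members lower numbered 1 without late G1 replicate 1 or either mitotic library, 2 without either early G1 library or late G1 replicate 2, and 10 without asynchronous replicate 1. Late G1 over asynchronous cells had 10 higher without either late G1 library, 2 lower without late G1 replicate 1 and 14 lower without asynchronous replicate 1. Fitted on its 4 libraries alone, mitotic over asynchronous cells had 4 members higher and 1 lower, and late G1 over asynchronous cells 13 higher and 4 lower.

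The genes that work with these complexes under other names were read from lists. The background against asynchronous cells was again 18.3% higher and 22.4% lower for mitotic, and 22.7% higher and 26% lower for late G1 cells. No list was tested against these shares, and the calls of listed genes were not checked with libraries left out. Of 10 kinase and helicase partners in Mediator and TFIIH, 6 were higher and 1 lower in mitotic than in asynchronous cells. Ercc3, the TFIIH translocase that opens promoter DNA, averaged 90.8 ± 5.20 CPM in mitotic and 49.8 ± 0.324 CPM in asynchronous cells (SD, n = 2 each; 1.83-fold, edgeR adjusted p = 0.00094). Cdk7, the kinase of TFIIH, averaged 111 ± 4.76 CPM in mitotic and 68.4 ± 0.433 CPM in asynchronous cells (SD, n = 2 each; 1.63-fold, edgeR adjusted p = 0.0022). Late G1 cells had 5 higher and 0 lower than asynchronous cells, led by Ercc3 (2.04-fold, edgeR adjusted p = 0.00037) and Ccnc, the cyclin of the Mediator kinase (1.96-fold, edgeR adjusted p = 0.0011). On release, Cdk7 alone was called, with 82.7 ± 3.74 CPM in late G1 against the mitotic level above (log2 -0.43 ± 0.11 SE, edgeR adjusted p = 0.049).

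Of 23 genes for pausing and elongation, 10 were higher and 1 lower both in mitotic and in late G1 cells than in asynchronous cells. Hexim1, the inhibitor of the elongation kinase P-TEFb, averaged 149 ± 11.6 CPM in mitotic, 118 ± 0.493 CPM in late G1 and 61.8 ± 0.106 CPM in asynchronous cells (SD, n = 2 each; 2.41-fold in mitotic and 1.91-fold in late G1, edgeR adjusted p = 0.00021 and 0.00053). The second gene by p was Leo1, of the PAF complex, in mitotic cells (1.60-fold, edgeR adjusted p = 0.0027) and Ccnt1, the cyclin of P-TEFb, in late G1 cells (1.99-fold, edgeR adjusted p = 0.0030). On release no gene of this list was called in edgeR, while 3 had an unadjusted p under 0.05 between early G1 and mitotic cells, 0 between late G1 and early G1 cells and 4 between late G1 and mitotic cells.

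Of 10 genes for assembly of the polymerase and for its tail phosphatases, 3 were higher in mitotic than in asynchronous cells, and 2 were higher and 1 lower in late G1. Gpn3, a GTPase needed to bring the polymerase into the nucleus, averaged 121 ± 6.65 CPM in mitotic, 167 ± 2.98 CPM in late G1 and 60.2 ± 6.76 CPM in asynchronous cells (SD, n = 2 each; 2.01-fold and 2.78-fold, edgeR adjusted p = 0.00073 and 0.00013). Ctdp1, a phosphatase of the polymerase tail, averaged 73.6 ± 1.46 CPM in mitotic, 82.8 ± 1.42 CPM in late G1 and 37.1 ± 4.39 CPM in asynchronous cells (SD, n = 2 each; 1.98-fold and 2.23-fold, edgeR adjusted p = 0.00085 and 0.00035). On release, Ctdsp1, a second tail phosphatase, was the 1 gene of this list called, with 27.5 ± 1.54 CPM in late G1 and 45.4 ± 0.866 CPM in mitotic cells (SD, n = 2 each; edgeR adjusted p = 0.038).

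Among 10 paralogs and variants of TFIID and related genes, 9 were tested. In mitotic over asynchronous cells 4 were higher and 1 lower, and in late G1 over asynchronous cells 3 were higher and 2 lower. Taf4b, a paralog of Taf4 known from germ cells, averaged 29.2 ± 3.30 CPM in mitotic, 46.5 ± 1.76 CPM in early G1, 58.6 ± 0.433 CPM in late G1 and 15.3 ± 5.16 CPM in asynchronous cells (SD, n = 2 each), and was 3.82-fold higher in late G1 than in asynchronous cells (edgeR adjusted p = 0.00041). It was 2.01-fold higher in late G1 than in mitotic cells (edgeR adjusted p = 0.027). Taf9b, the paralog of Taf9, averaged 3.07 ± 0.490 CPM in mitotic, 3.24 ± 0.0662 CPM in late G1 and 12.2 ± 2.10 CPM in asynchronous cells (SD, n = 2 each; 0.253 and 0.267 times the asynchronous level, edgeR adjusted p = 0.00051 and 0.00045). Taf1d, which belongs to the polymerase I factor SL1, averaged 158 ± 2.47 CPM in mitotic, 252 ± 19.3 CPM in early G1, 250.3 ± 1.64 CPM in late G1 and 111 ± 3.95 CPM in asynchronous cells (SD, n = 2 each). It was the 1 gene of the list called between early G1 and mitotic cells (1.59-fold, edgeR adjusted p = 0.019).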

How the data were processed

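RNA was measured by RNA-seq in 8 libraries, 2 for each of 4 states, from a poly(A) kit that marks strand, with 50-base single reads (per the labels' protocols). The RNA extraction step in the labels names asynchronous cells only. TopHat2, SAMtools, HTSeq and mm10 are named, without versions or roles, per the submitters' processing notes. For the annotation release, and for how strand was set, nothing is given in the sources used here. The values the authors deposited are whole-number read counts for each Ensembl gene, without normalisation.

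Gene IDs were matched to GENCODE M21 (GRCm38), which gave a symbol for 54809 of 54838 (99.9%). In R 4.3.3 and edgeR 4.0.16, genes passing filterByExpr (minimum count 10) were kept, libraries were scaled by TMM, and the robust quasi-likelihood test was fitted to all 8 libraries with 4 residual degrees of freedom. Tests were two-sided, and calls needed an adjusted p (Benjamini-Hochberg, over the 19101 genes tested) under 0.05. A count of 3 was taken as the floor, 0.116 to 0.152 CPM, which covers counting error only. No pair of libraries agreed within sampling noise (mean chi-square per gene of at least 3.005). The fits were also run on simulated counts in which every state had the same spread for a given gene. The states here differed in spread, so that run does not bear on the calls against asynchronous cells. Named genes were up to 6 called members per direction and comparison averaging 10 CPM or more, plus Polr2a, Tbp, Taf1, Gtf2b, Med1 and Med12. Members and lists were chosen with earlier results of these data known. Alternatives were DESeq2 1.42.0 and its size factors, no filter, fits of 2 groups, a replicate block, libraries left out, and, chosen after seeing the data, an offset for transcript length. Promoter sequences are from RefSeq. The replicate numbers were not treated as pairs.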

Additional observations from a re-analysis of the deposited data

How the results depend on the processing

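With 2 libraries a state, the calls rest on a spread shared by all states, and the asynchronous pair differed most. Fits that leave 1 library of a state assume that it varies like the others. The number of members higher in mitotic over asynchronous cells was 20, and 10 to 31 with 1 library left out, and the number lower was 4, and 1 to 10. For early G1 over mitotic cells these were 2 higher (0 to 6) and 1 lower (0 to 10), for late G1 over mitotic cells 3 higher (0 to 9) and 1 lower (0 to 13), for late G1 over asynchronous cells 22 higher (10 to 27) and 6 lower (2 to 14), and for late G1 over early G1 cells 0 in each direction in all 8 such fits. Fitted on the 2 groups alone, the numbers higher and lower were 4 and 1 for mitotic over asynchronous, 4 and 3 for early G1 over mitotic, 3 and 1 for late G1 over early G1, 7 and 3 for late G1 over mitotic, and 13 and 4 for late G1 over asynchronous cells. With replicate 1 of both the mitotic and the asynchronous cells left out, they were 33 and 11, 14 and 22, 3 and 1, 15 and 27, and 32 and 18 in the same order. The shares of all genes called in these fits are not set beside the counts here, so the counts are not read as results about the members. DESeq2 called 2 members lower in early G1 than in mitotic cells, and the length offset 2 lower in late G1 than in mitotic cells. In mitotic over asynchronous cells, Taf5 lost its call with DESeq2, with its size factors in edgeR and with the block. Without the filter Taf5, Gtf2e2, Gtf2h2 and Med19 lost theirs, and Taf12 did with the length offset. When the 2 groups were fitted alone, only Taf7, Gtf2h3, Polr2d and Med10 were still called higher, and only Med18 lower. The other calls were lost there (edgeR adjusted p between 0.0515 and 0.243). Among these were Med17, Med21, Polr2b, Taf6 and Taf13, which had held with each library left out. In late G1 over asynchronous cells, Taf5, Gtf2h1, Med19, Med21 and Taf13 lost the call without the filter. Med21 and Med29 lost it with the block, and Tbp with the length offset. The fit of 2 groups lost the calls of Taf5, Tbp, Polr2e, Gtf2h1, Med19, Med21, Med22, Med29, Taf4, Taf11 and Taf13. The cause was not tested.

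The replicate numbers were not taken to pair the samples, since not every pair of states passed a correlation of 0.1 and the labels do not tie numbers to clones: deviations of same-numbered libraries from their state means correlated between -0.14 and 0.46 over the 19101 genes, highest for mitotic with asynchronous cells. A fit with the replicate number as a block called 21 higher and 4 lower in mitotic over asynchronous, 1 higher and 1 lower in early G1 over mitotic, 3 and 1 in late G1 over mitotic, 22 and 6 in late G1 over asynchronous, and 0 in late G1 over early G1 cells. The share of all genes called in that fit is not given here, so these counts are not read as results about the members.

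Among genes followed through every setting, signs changed only for log2 differences that were not called. With 1 library left out at a time, Polr2a lay between -0.23 and 0.30 (-0.086 without early G1 replicate 2) in early G1 over mitotic, between -0.45 and 0.084 in late G1 over mitotic, and between -0.076 and 0.29 in late G1 over asynchronous cells. Tbp lay between -0.053 and 0.15 (-0.027 without early G1 replicate 1) in early G1 over mitotic, between -0.067 and 0.076 (-0.016 without late G1 replicate 2) in late G1 over early G1, and between -0.050 and 0.15 in late G1 over mitotic cells. Taf1 lay between -0.099 and 0.083 (0.017 without late G1 replicate 2) and Gtf2b between -0.18 and 0.055 in late G1 over early G1 cells. Med1 lay between -0.33 and 0.053 (0.011 without mitotic replicate 2) in mitotic over asynchronous and between -0.10 and 0.28 in late G1 over asynchronous cells, and Med12 between -0.11 and 0.90 in mitotic over asynchronous cells. With the length offset, Polr2a was at -0.12 in early G1 over mitotic and -0.051 in late G1 over asynchronous cells, Tbp at -0.16 in early G1 and -0.10 in late G1 over mitotic cells, Taf1 at 0.021 in late G1 over early G1 cells, and Med1 at -0.055 in late G1 over asynchronous cells. Without the filter Tbp was at -0.0035 in late G1 over early G1 cells, and with replicate 1 of both mitotic and asynchronous cells left out Polr2a was at 0.084 in late G1 over mitotic cells.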

Other observations

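Genes of the polymerase III machinery were read as a further list, with no test of the list and no check of its calls with libraries left out. Of 20 subunits and factors, 5 were higher and 0 lower in mitotic than in asynchronous cells, with 7 at an unadjusted p under 0.05, against a background over all genes of 18.3% higher and 22.4% lower. Polr3d, a core subunit, averaged 72.6 ± 1.45 CPM in mitotic and 44.8 ± 1.91 CPM in asynchronous cells, and Polr3c 71.2 ± 1.89 CPM in mitotic and 45.2 ± 4.00 CPM in asynchronous cells (SD, n = 2 each; edgeR adjusted p = 0.0027 and 0.0043). In late G1 over asynchronous cells 9 were higher and 0 lower, with 11 at an unadjusted p under 0.05 (all genes, 22.7% higher and 26% lower), led by Gtf3c4 of TFIIIC (1.65-fold, edgeR adjusted p = 0.0017) and Polr3g (2.13-fold, edgeR adjusted p = 0.0033), a subunit known for its high level in pluripotent cells.

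On release, Gtf3c4 averaged 109 ± 4.31 CPM in early G1 and 69.7 ± 0.0747 CPM in mitotic cells (SD, n = 2 each; edgeR adjusted p = 0.024) and was the 1 gene of that list called. Late G1 over mitotic cells had Gtf3c4 (1.65-fold, edgeR adjusted p = 0.011) and Bdp1 of TFIIIB (2.10-fold, edgeR adjusted p = 0.035) as higher. Of Polr1c and Polr1d, which polymerases I and III share, Polr1c alone was called, in mitotic over asynchronous cells (1.33-fold, edgeR adjusted p = 0.019).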
